A study of Mus musculus with 49 samples.

Results

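The late response to IL-2 was described in CD8+ T cells of homozygous *Stat5b* Y699F knock-in mice (*Stat5b* KI), as the difference between cells after 48 hr with IL-2 and cells at 0 hr. Its libraries were chosen by their labels, 3 KI libraries at 48 hr and 3 at 0 hr, which are 6 of the 48 RNA-seq libraries of the series. The value of each gene was that of its longest transcript. All mice were labelled C57BL/6J, after a backcross of founders that were made in zygotes of a hybrid strain, of both sexes and 8 to 24 weeks old, and the WT cells used for comparison came from littermates of the same line. CD8+ T cells were isolated from the spleen with a negative-selection kit and cultured in complete RPMI medium to which recombinant human IL-2 had been added at 500 IU/ml. Groups of the same line at 4 and 24 hr, and homozygous *Stat5a* Y694F KI cells at 0 and 48 hr, also with 3 libraries each, were used where a comparison needed them. The KI allele is a germline change that every cell of the animal carries, from development on. No 48 hr culture without IL-2 was among the samples analysed here, so IL-2 and time in culture cannot be told apart. The labels do not say that the 3 libraries of a group came from separate mice. The p-values thus measure a spread between libraries, pooled over all groups of the fit, which may be technical.

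IL-2 binds a receptor of α, β and γ chains, and the kinases JAK1 and JAK3 bound to the β and γ chains then phosphorylate STAT5A and STAT5B on a tyrosine near the C terminus. The phosphorylated proteins pair through their SH2 domains and bind DNA, often at the GAS motif. In CD8+ T cells this pathway is known for driving growth, division, survival and cytotoxic genes, while the same receptor also signals through the PI3K and MAP kinase pathways. In *Stat5b* KI cells the tyrosine of STAT5B is replaced by phenylalanine, and STAT5A is not altered.

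The change that defines the KI cells is shown first. The guide and the donor come from the study's oligonucleotides, and the reference is GRCm38.p6 on the minus strand. The guide matched chr11:100784292-100784311, with the PAM of the genome in capitals, and the other stretches cover chr11:100784266-100784314, with the bases that differ between donor and reference in capitals.
guide: ccggcagcgaaagcagctgaCGG
reference: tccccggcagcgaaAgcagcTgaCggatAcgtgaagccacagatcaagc
donor: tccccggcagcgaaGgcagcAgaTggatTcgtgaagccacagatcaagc
Counted from 1 at the 5′ end of the printed stretch, the donor differs by A15G, T21A, C24T and A29T. The last of these turns codon 699 from tac to ttc, in exon 17 of 19 of *Stat5b* (NM_001113563.2). A substitution of this kind leaves the level of the RNA as no check of the label. *Stat5b* was at 26.9, 27.2 and 27.0 RPKM (reads per kilobase of transcript, corrected for how many reads of a library were mapped) in the KI libraries at 0 hr and at 33.2, 31.5 and 28.6 RPKM at 48 hr. Its fitted log2 difference was 0.07 ± 0.11 (SE), with an edgeR adjusted p of 0.637. The related *Stat5a* was at 22.7, 21.4 and 21.2 RPKM at 0 hr and at 22.2, 20.97 and 18.4 RPKM at 48 hr, a log2 difference of −0.22 ± 0.07 (SE).

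KI cells had a late response, in which falls of at least 2-fold outnumbered rises. Of 15562 genes tested, 969 were higher at 48 hr than at 0 hr (6.23% of the genes tested) and 1949 were lower (12.5%), by the quasi-likelihood test of edgeR (Benjamini-Hochberg adjusted p up to 0.05, change of 2-fold or more). These are the thresholds behind "rose" and "fell" in what follows. Counts of list members in KI cells are to be read against these 6.23% and 12.5%. Counts in WT cells are to be read against 16.2% of the genes tested higher and 19.2% lower. Of the 2918 genes called, 33.2% were higher. Without the 2-fold threshold the order depended on the scaling and on single libraries. At an adjusted p of up to 0.05, edgeR had 4393 genes higher and 3784 lower, and limma 4668 and 1785 of 11735 tested. With DESeq2 size factors in the same test 3655 were higher and 4426 lower, with DESeq2's Wald test 3735 and 4451, and with the 24 libraries of the *Stat5b* line 4538 and 4886. Falls were also the more numerous without 0 hr KI replicate 1 (3425 higher, 3737 lower), 0 hr KI replicate 2 (3558 and 3674) or 48 hr KI replicate 1 (3455 and 3778). The split was more even where genes of low level weighed less: with limma on log2(RPKM + 1), 565 were higher and 575 lower, and with genes kept only at an RPKM of at least 5, 446 were higher and 495 lower. A rise of at least 4-fold was called for 0.977% of the genes tested and a fall of that size for 6.37%. The reads on longest transcripts numbered 34916132 to 38755742 in the 0 hr libraries and 39156211 to 42457117 at 48 hr.

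RPKM values of the 3 libraries at 48 hr lay wholly above those at 0 hr for 6442 genes (41.4%) and wholly below for 3650 (23.5%), and among called genes this held for 962 of the 969 that rose and 1906 of the 1949 that fell. RPKM sat slightly above the fitted scale at 48 hr. For genes that had 5 RPKM or more in each 0 hr library, the log2 ratio of mean RPKM exceeded the fitted log2 difference by a median of 0.13, while the median fitted difference of all genes was 0.03. Fold changes below are on the fitted scale, and levels are RPKM.

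The 12 rises that were largest among genes at an RPKM of at least 5 are described first. Chemokine receptor *Cxcr6*, which guides activated T cells to tissues that make CXCL16, was at 3.68, 4.22 and 3.91 RPKM at 0 hr and at 52.3, 51.6 and 46.3 RPKM at 48 hr. The groups were far apart, with an 11.6-fold rise (log2 3.53 ± 0.20 SE, edgeR adjusted p = 4.32e-17). The steps lay at every time point, with means of 15.1 RPKM at 4 hr and 36.5 RPKM at 24 hr. *Gzmb*, which encodes the protease granzyme B that kills target cells, was at 10.4, 8.80 and 9.45 RPKM at 0 hr and at 69.3, 68.6 and 75.5 RPKM at 48 hr. It rose 6.79-fold (log2 2.76 ± 0.33 SE, edgeR adjusted p = 5.7e-09), and most of the rise came late, with means of 6.20 RPKM at 4 hr and 15.0 RPKM at 24 hr.

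Interferon-induced GTPases, which act on vacuoles that hold microbes, were among them. *Irgm2* was at 5.96, 5.74 and 5.80 RPKM at 0 hr and at 75.1, 69.6 and 65.8 RPKM at 48 hr. The libraries within each group were close to each other, and the rise was 3.45 ± 0.18 (SE) on the log2 scale (edgeR adjusted p = 2.29e-18). *Iigp1* rose by 3.22 ± 0.41 (SE) on the log2 scale, and the related symbols *Gm12250* and *Gm4951* by 3.39 and 2.86.

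*Mxd3*, which encodes a partner of MAX that is made in dividing cells, rose from 1.49, 2.18 and 1.41 RPKM to 11.2, 16.1 and 9.47 RPKM. *Gm14446* rose from 4.50, 4.03 and 5.17 RPKM to 57.5, 61.5 and 58.0 RPKM. *Drc1*, known as a component of the axoneme of cilia, had the largest rise of the 12 (log2 5.86 ± 0.39 SE) but started from 6, 19 and 9 reads, and reached 5.09, 8.46 and 4.71 RPKM. The natural killer (NK) cell receptor genes *Ncr1* (log2 3.37 ± 0.38 SE) and *Klra7* (2.73 ± 0.33) also rose, and *Klra7* belongs to a family of near-identical genes among which reads may be split. *Gpnmb*, which encodes a membrane glycoprotein abundant in macrophages, rose by 5.44 ± 0.55 (SE) to 10.4, 6.07 and 8.31 RPKM.

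**Figure D1:**
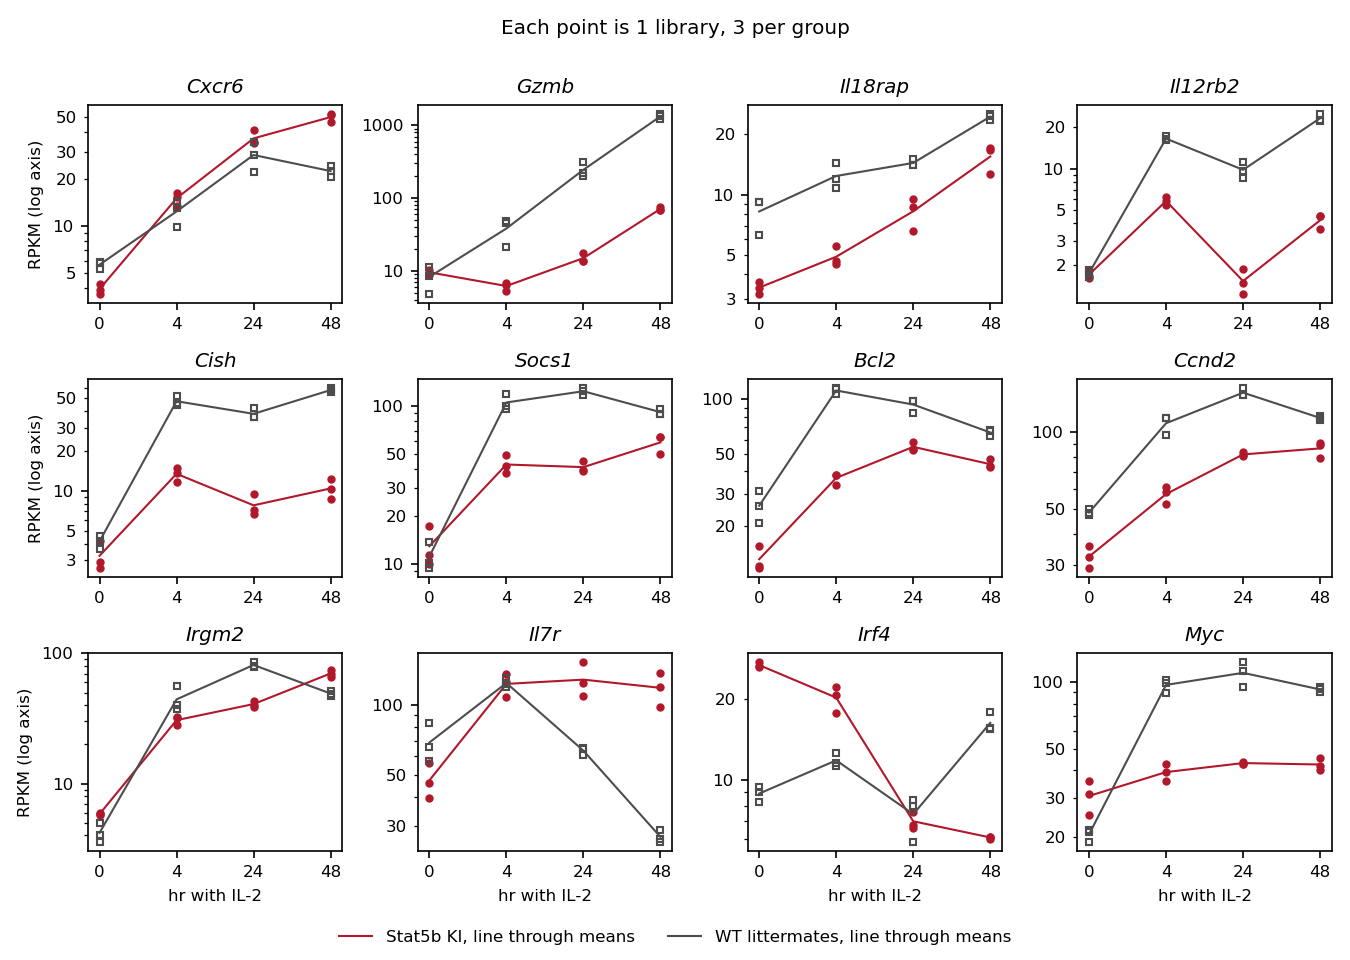
RPKM on a log axis against hr with IL-2 for 12 genes, with 1 point per library (3 per group) and lines through the group means, for *Stat5b* KI cells and WT littermates. *Cxcr6* ended higher in KI than in WT cells, *Gzmb*, *Cish* and *Myc* ended lower, and *Il7r* and *Irf4* moved in opposite directions in the genotypes.

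The genes of the IL-2 receptor and of JAK-STAT signaling changed little as a list. Of 14 tested, 2 rose and 0 fell, with a median log2 difference of 0.11. *Il2ra*, which encodes the α chain that raises the affinity for IL-2, was at 4.08, 2.85 and 3.99 RPKM at 0 hr and at 9.21, 11.1 and 11.9 RPKM at 48 hr. The groups did not overlap, and the rise was 1.43 ± 0.37 (SE) on the log2 scale, against 4.67 in WT cells. *Il2rb* (0.48 ± 0.15 SE) and *Il2rg* (0.37 ± 0.08 SE), the signaling chains, did not reach a 2-fold difference.

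Among 22 feedback inhibitors and genes known as STAT5 targets, 7 rose and 5 fell in KI cells, with a median of 0.21, and in WT cells 9 rose and 6 fell. *Cish*, which encodes an SH2 protein that limits signaling of the IL-2 receptor, was at 2.89, 4.18 and 2.63 RPKM at 0 hr and at 10.3, 12.3 and 8.70 RPKM at 48 hr. Every 48 hr library was above every 0 hr library, and the rise was 1.56 ± 0.22 (SE) on the log2 scale. In WT cells it was 3.70, and the response of KI cells was lower than that of WT cells by −2.14 ± 0.31 (SE, edgeR adjusted p = 3.4e-07). *Socs1*, another inhibitor of JAK kinases, rose by 2.06 ± 0.23 (SE), from 11.4, 17.4 and 9.91 RPKM to 63.4, 63.7 and 49.6 RPKM.

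*Bcl2*, the survival gene that blocks the mitochondrial death pathway, was at 11.9, 15.6 and 11.7 RPKM at 0 hr and at 42.6, 46.9 and 42.1 RPKM at 48 hr. It rose by 1.61 ± 0.11 (SE) in KI cells and by 1.26 in WT cells, and the difference of 0.36 was not called (edgeR adjusted p = 0.053). The kinase gene *Pim2* rose by the same amount, 1.61 ± 0.10 (SE), against 1.45 in WT cells. *Pim1* fell by 1.40 on the log2 scale and *Pim3* by 2.34, and the MAP kinase phosphatase genes *Dusp4* and *Dusp5* fell by 3.32 and 2.77. The cytokine genes *Osm* and *Lif* rose by 1.61 and 2.11, but *Lif* reached only 1.42, 2.07 and 1.39 RPKM, against a mean of 25.6 RPKM in WT cells at 48 hr.

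The GAS motif was sought in promoters from RefSeq (GRCm38.p6), which run from 250 bases before to 50 bases after the start of a gene. The letters searched were TTCNNNGAA, which read the same on both strands. They were in 10.8% of 686 promoters of genes that rose, 7.22% of 1371 of genes that fell, 7.14% of 11284 of genes tested and 8.3% of all 32851 promoters. In the list of feedback inhibitors and STAT5 targets 5 of 15 promoters held it (33.3%). A match is a description and no site. Stretches of the promoters of 3 risen genes, of *Lta*, which was not called, and of *Bcl6*, which fell, chosen after their values were seen, are printed with the motif in capitals to show its spacing, at chr9:107296654-107296683 (plus strand) for *Cish*, chr11:58214892-58214921 (plus) for *Irgm2*, chr14:56262285-56262314 (minus) for *Gzmb*, chr17:35205484-35205513 (minus) for *Lta* and chr16:23988951-23988980 (minus) for *Bcl6*.
Cish: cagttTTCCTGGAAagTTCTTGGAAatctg
Irgm2: aactagccatTTCCAGGAActgaaactgaa
Gzmb: gcagtagggcaggagttTTCATAGAAagca
Lta: accatcactcTTCAGGGAAccaggcttcca
Bcl6: agcaaattagTTCTCAGAAttccagaggcc
The *Cish* promoter held 2 copies of the motif within these 30 bases, and the other stretches held 1. The log2 difference in KI cells was 0.71 for *Lta* and −1.42 for *Bcl6*.

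Among 20 receptors for other cytokines 6 rose and 2 fell, with a median of 0.22. The IL-18 receptor genes *Il18rap* (log2 2.04 ± 0.18 SE) and *Il18r1* (1.58 ± 0.17) and the IL-12 receptor genes *Il12rb1* (1.48 ± 0.17) and *Il12rb2* (1.17 ± 0.23) were among them, and these receptors are known for raising interferon gamma in T cells. *Il18rap* was at 3.67, 3.20 and 3.41 RPKM at 0 hr and at 16.8, 17.1 and 12.7 RPKM at 48 hr. *Il12rb2* rose to 4.52, 3.65 and 4.49 RPKM, against a mean of 23.1 RPKM in WT cells, and its response was lower than in WT cells by −2.46 ± 0.32 (SE).

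*Il7r*, which encodes the receptor chain for IL-7 that keeps resting T cells alive, moved against its course in WT cells. It was at 46.2, 39.7 and 55.9 RPKM in KI cells at 0 hr and at 119.6, 98.1 and 137.3 RPKM at 48 hr. The groups were apart, and *Il7r* rose by 1.19 ± 0.18 (SE, edgeR adjusted p = 6.83e-07), while it fell by 1.45 on the log2 scale in WT cells, to a mean of 27.0 RPKM. The difference between the responses was 2.64 (edgeR adjusted p = 6.8e-11). In *Stat5a* KI cells at 48 hr the mean was 55.9 RPKM, and the *Stat5b* KI response was higher than the *Stat5a* KI response by 1.38 (edgeR adjusted p = 0.0002).

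Genes of division rose late in KI cells. Of 36 mitosis and kinetochore genes, 30 rose and 0 fell in KI cells, with a median of 1.38, against 36 of 36 and a median of 4.09 in WT cells. Of 48 DNA replication genes, 12 rose (median 0.75), against 45 in WT cells (2.31). The test of the difference between the responses called 35 of the mitosis and 38 of the replication genes lower in KI cells, and 0 higher. Of all genes tested 11.5% were lower and 9.8% higher. Of 18 cyclin and CDK genes, 10 rose and 1 fell (median 1.07), and of 10 E2F and DP factors 3 rose (0.74). With 1 library left out, 27 to 31 mitosis, 8 to 15 replication and 7 to 10 cyclin and CDK genes rose in KI cells. *Top2a*, the topoisomerase that untangles chromosomes, was at 18.6, 22.6 and 22.2 RPKM at 0 hr and at 59.3, 84.0 and 51.2 RPKM at 48 hr. Replicate 2 was the highest library at 48 hr, and no library of a group reached into the other.

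The mitotic kinase genes *Ttk* (log2 1.93 ± 0.23 SE) and *Cdk1* (1.59 ± 0.24) and the kinetochore gene *Spc25* (1.93 ± 0.23) rose, and the centromere histone gene *Cenpa* did not (0.08 ± 0.14). *Ccnf*, whose product targets proteins for degradation in late cell cycle, rose by 2.08 ± 0.20 (SE), and *Ccne1*, the cyclin of entry into DNA synthesis, by 1.82 ± 0.14. In the replication list *Mcm10* (1.83 ± 0.20 SE) and *Rrm2* (1.75 ± 0.22) rose most. *Pcna*, the clamp of the replication fork, was at 137.9, 161 and 136.2 RPKM before and at 203, 234 and 175 RPKM after culture, a difference of 0.36 ± 0.09 that did not reach 2-fold, against a mean of 466 RPKM in WT cells.

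The rise of the mitosis list came after 24 hr. Its mean log2(RPKM + 1) in KI cells was 2.56 ± 0.11 (SD, n = 3) at 0 hr, 2.87 ± 0.16 at 4 hr, 2.33 ± 0.15 at 24 hr and 3.77 ± 0.26 at 48 hr. In WT cells it was 1.84 ± 0.07 at 0 hr and 5.14 ± 0.05 at 48 hr. From 24 to 48 hr in KI cells, 264 of all genes rose (1.7% of those tested) and 169 fell (1.09%). With limma on log2(RPKM + 1) 168 rose and 22 fell, so the balance of rises and falls depended on the setting. By edgeR 35 of the 36 mitosis genes were among the risen, with 7 of the 48 replication genes. At 0 hr, KI cells stood above WT cells in these genes: 22 of the 36 mitosis genes were higher in KI cells and 0 lower, with 1110 higher (7.13%) and 96 lower (0.617%) of all genes. Markers of other cells were also higher in KI cells at 0 hr, for 16 of 16 B cell, 12 of 12 erythroid, 21 of 26 macrophage, 5 of 9 neutrophil and 3 of 10 dendritic cell markers, with 0 lower in each list, and of 12 NK cell markers 1 was higher and 4 were lower. Their part in the 0 hr difference of the mitosis genes was not tested. At 48 hr the order was the other way, with a log2 difference between KI and WT cells above 0 for 0 of the 36. Their median difference was −1.61, against 0.06 for all genes. In this comparison 10418 of the 15562 genes tested had an unadjusted p below 0.05 by edgeR.

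**Figure D2:**
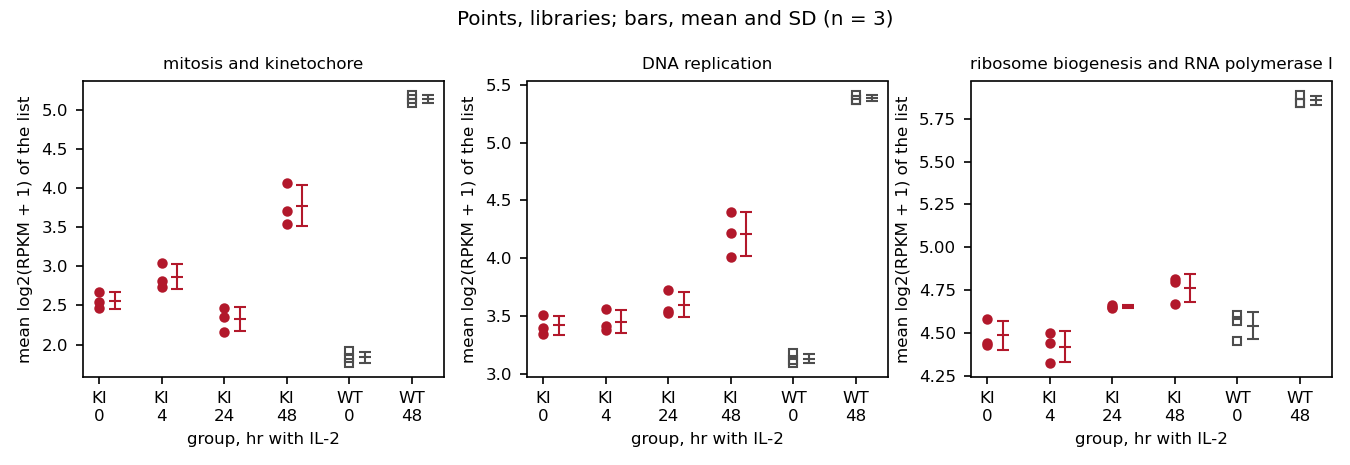
Mean log2(RPKM + 1) of the genes of 3 lists in each library (points) by genotype and hr with IL-2, with group mean and SD (n = 3, bars) beside them. Mitosis genes in KI cells reached 3.77 at 48 hr after 2.33 at 24 hr, and WT cells reached 5.14.

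Genes of the G1 phase took different courses. *Ccnd2*, a D cyclin that is induced by cytokines, was at 32.2, 29.4 and 35.8 RPKM at 0 hr and at 90.9, 89.1 and 79.2 RPKM at 48 hr. Its rise of 1.27 ± 0.10 (SE) in KI cells stood beside 1.14 in WT cells, with a difference of 0.13 that was not called (edgeR adjusted p = 0.43). *Ccnd3* rose by 1.03 and *Ccnd1* fell by 1.97 on the log2 scale. Their kinase gene *Cdk6* differed by 0.18 ± 0.11 (SE) in KI cells, at 6.70, 7.15 and 6.47 RPKM after culture, while it rose by 2.65 in WT cells, to a mean of 36.9 RPKM. *Cdkn1b*, the CDK inhibitor p27, was at 56.7, 55.8 and 66.9 RPKM at 48 hr and differed by 0.04 in KI cells, and its mean in WT cells was 22.4 RPKM.

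*Myc*, which encodes a transcription factor of cell growth that IL-2 induces, was at 31.2, 35.7 and 25.2 RPKM at 0 hr and at 45.4, 42.0 and 40.2 RPKM at 48 hr. The difference of 0.34 ± 0.18 (SE) was not called (edgeR adjusted p = 0.109), and the WT response of 2.07 was larger by 1.73, with KI minus WT at −1.73 (edgeR adjusted p = 4e-07). Lists of genes for making and turning over protein and for respiration had medians between −0.27 and 0.21 in KI cells, and the median of all genes was 0.03. Enzymes of serine and one-carbon metabolism (0.46) and of purine and pyrimidine synthesis (0.30) lay above this range and amino acid transporters (−0.41) below it. Among 40 genes of ribosome biogenesis 0 rose and 0 fell (median 0.16), as among 20 aminoacyl-tRNA synthetases (0.21), 37 translation initiation factors (−0.05), 38 proteasome subunits (0.20), 43 nuclear respiratory chain genes (0.06) and 75 cytosolic ribosomal proteins (−0.27). In WT cells 29 of the 40, 16 of the 20, 18 of the 37, 29 of the 38 and 14 of the 43 rose, and 0 of the 75. By edgeR's unadjusted p below 0.05, KI cells had 17 genes higher and 7 lower for ribosome biogenesis, 13 and 2 for the synthetases, 9 and 11 for the initiation factors, 20 and 1 for the proteasome, 14 and 4 for the respiratory chain, and 0 and 53 for the ribosomal proteins. Of all genes tested, 30.4% were higher and 26.5% lower at that p, so these counts are read against those shares. DESeq2's Wald test called 0 of each list higher at 2-fold or more.

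Single enzymes departed from their lists. In the glycolysis, sterol, one-carbon and purine lists 1 gene rose, and in each of these lists 0 rose in at least 1 fit that left out a library. Of 22 genes of glycolysis, *Pdk1*, whose product keeps pyruvate out of the mitochondrion, was the 1 that rose (log2 1.00 ± 0.12 SE), and *Hk2* (−1.57 ± 0.17), the inducible hexokinase, and *Aldoc* were among 3 that fell. Glycolysis genes rose in WT cells for 12 of the 22. *Eno1* was at 106.2, 131.02 and 103 RPKM at 0 hr and at 216, 214 and 165 RPKM at 48 hr, a difference of 0.67 ± 0.10 (SE) below the 2-fold threshold. *Idi1* of the isoprenoid pathway rose (1.11 ± 0.14 SE), and the desaturase gene *Scd1* (−2.08) and *Insig1* (−1.14) fell, among 28 sterol and fatty acid genes of which 18 rose in WT cells. In the list of 14 serine and one-carbon enzymes 1 rose, against all 14 in WT cells, and of 21 purine and pyrimidine enzymes only *Ppat* did (1.04 ± 0.07 SE). The amino acid transporter gene *Slc3a2* fell by 1.62 on the log2 scale, from 88.8, 95.7 and 80.0 RPKM to 34.2, 31.0 and 29.3 RPKM.

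**Figure D3:**
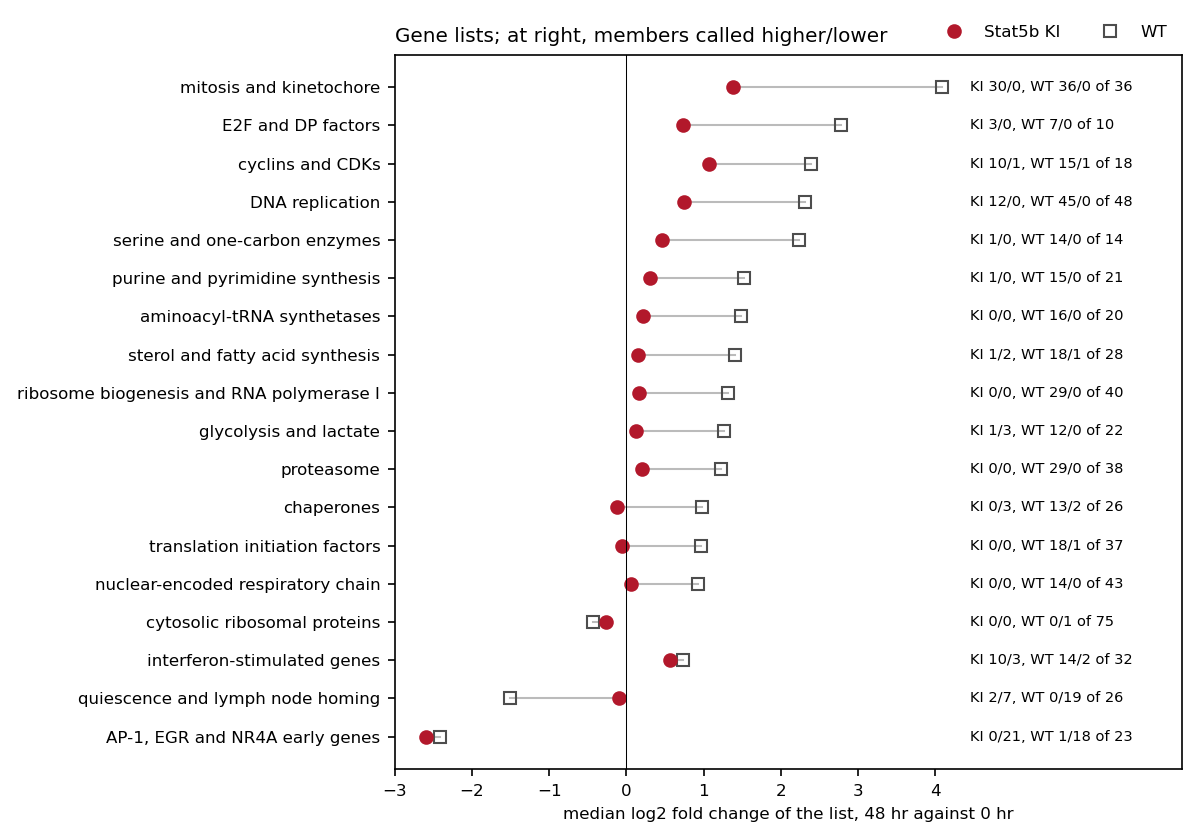
Median log2 fold change (48 hr against 0 hr) of the tested members of 18 gene lists in *Stat5b* KI cells (circles) and WT cells (squares), with the numbers of members called higher and lower at the right. Ribosome biogenesis, tRNA synthetase, initiation factor, proteasome and respiratory chain lists sit between −0.05 and 0.21 in KI cells and between 0.93 and 1.49 in WT cells. The medians of the early genes are −2.59 in KI and −2.41 in WT cells, although 10 of these 23 genes had a lower response in KI cells.

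Interferon-stimulated genes rose for 10 of 32 and fell for 3, with a median of 0.56, and in WT cells 14 rose and 2 fell, with 0.73. KI and WT responses differed for 5 of the 32, each lower in KI cells. Of all genes tested 11.5% were lower in this comparison, and the count of 5 was not far above that share. *Gbp2*, a guanylate-binding protein gene, was at 32.9, 29.4 and 35.8 RPKM at 0 hr and at 141.3, 134.4 and 121.5 RPKM at 48 hr. It rose by 1.88 ± 0.33 (SE), and *Gbp7* by 2.16 ± 0.30 and *Ifit3* by 1.87. *Ifitm3* (−2.49 ± 0.39 SE), *Mx2* (−2.20) and *Rsad2* (−1.33) fell. *Ifng* itself was at 8.58, 10.9 and 7.78 RPKM at 0 hr and at 8.68, 7.58 and 5.52 RPKM at 48 hr, with overlapping groups, and in WT cells it rose by 2.38.

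Effector genes rose for a few members. Of 16 granule genes tested 5 rose and 1 fell, namely *Gzmb*, *Gzmc* (log2 4.40 ± 0.40 SE, to 5.71, 2.95 and 3.30 RPKM), *Tnfsf10* (1.62), *Gzme* and *Gzmg*, and the proteoglycan gene *Srgn* (−1.07 ± 0.22). *Gzme* and *Gzmg* had 0 reads in each 0 hr library and at most 7 at 48 hr, so no fold is given for them, and granzyme genes of this cluster are similar in sequence. *Prf1*, the pore-forming perforin, was at 12.3, 12.2 and 12.9 RPKM before and at 27.2, 27.6 and 22.0 RPKM after culture, a log2 difference of 0.90 ± 0.15 (SE) just under 2-fold, against 0.63 in WT cells. *Gzmb* reached a mean of 1330 RPKM in WT cells, so that the KI response was lower by −4.48 ± 0.45 (SE) on the log2 scale.

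Among 17 T cell cytokine genes 5 rose and 3 fell. *Csf2*, the growth factor GM-CSF, rose by 3.86 ± 0.54 (SE) but to only 1.32, 0.790 and 0.916 RPKM, and the chemoattractant *Xcl1* rose by 1.14 ± 0.23, to 109.2, 97.1 and 80.3 RPKM. *Il16* was at 20.1, 19.9 and 20.3 RPKM at 0 hr and at 68.8, 60.5 and 56.7 RPKM at 48 hr, and its response exceeded that of WT cells by 0.99, just under a 2-fold difference. *Lta*, a ligand of the TNF family, differed by 0.71 ± 0.13 in KI cells and rose by 4.49 in WT cells, to a mean of 83.0 RPKM. *Il10* and *Il21* fell by 2.88 and 3.17 on the log2 scale. *Cxcr3* and *Ccr2*, receptors for inflammatory chemokines, rose by 1.81 and 1.30, and *Ccr7*, the receptor that guides T cells to lymph nodes, fell by 1.36.

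Of 31 transcription factors of effector and memory cells, 2 rose and 7 fell, against 6.23% and 12.5% of all genes tested. The count of rises was near that share. *Tbx21*, the regulator T-bet of cytotoxic cells, rose by 1.03 ± 0.15 (SE), from 5.04, 6.31 and 4.97 RPKM to 13.0, 13.1 and 10.6 RPKM, and *Id3* rose by 1.18. *Irf4*, which is induced through the T cell receptor, was at 26.3, 26.5 and 27.4 RPKM at 0 hr and at 6.13, 6.13 and 6.00 RPKM at 48 hr. It fell by 2.27 on the log2 scale in KI cells, and its WT libraries went from a mean of 8.87 to 16.3 RPKM (log2 0.78), so that the KI minus WT difference was −3.05 (edgeR adjusted p = 9e-11). *Bhlhe40* and *Nfil3* fell by 3.02 and 2.45. *Tcf7*, the factor of naive and memory cells, was at 294, 312 and 300 RPKM before and at 381, 354 and 343 RPKM after culture, a difference of 0.12 ± 0.07 (SE), against −1.52 in WT cells.

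In the list of quiescence and lymph node homing genes, 2 of 26 rose and 7 fell in KI cells (median −0.09), and 0 rose and 19 fell in WT cells (−1.51). KI and WT responses differed for 16 of the 26, each higher in KI cells, against 9.8% of all genes tested that were higher. *S1pr1*, the receptor for exit from lymph nodes, was at 114.2, 84.7 and 139.5 RPKM at 0 hr and at 128.9, 108.9 and 132.8 RPKM at 48 hr, with overlapping groups. Its mean in WT cells at 48 hr was 40.0 RPKM. *Slfn2*, which is needed for T cell quiescence, rose by 1.56 ± 0.14 (SE) in KI cells. *Klf2*, the factor that keeps *S1pr1* expressed, differed by −0.81 ± 0.14 (SE) and fell by 2.77 in WT cells.

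Early genes, which are induced within minutes by stress or receptor signals, made up many of the 12 largest falls. Of 23 AP-1, EGR and NR4A genes, 0 rose and 21 fell in KI cells (median −2.59), and 18 fell and 1 rose in WT cells (−2.41). The difference between the responses was called for 10 of the 23, all lower in KI cells (median of the 23 −0.88), against 11.5% of all genes tested that were lower. *Fos* was at 252, 275 and 242 RPKM in KI cells at 0 hr and at 0.931, 0.867 and 1.04 RPKM at 48 hr, 297-fold lower (log2 −8.21 ± 0.20 SE, edgeR adjusted p = 7.6e-28). WT cells had a fall of 8.28 on the log2 scale. *Fosb* (−9.93 ± 0.46 SE), *Klf4* (−6.66), *Atf3* (−6.30), the MAP kinase phosphatase gene *Dusp1* (−5.61) and the heat shock gene *Hspa1a* (−5.56) followed, and *Junb* fell from 600, 741 and 504 RPKM to 41.9, 39.0 and 39.7 RPKM. The cells at 0 hr were taken after isolation from the spleen, and at that time 2 of the 23 genes were higher in KI cells than in WT cells, with 0 lower. Of all genes tested 7.13% were higher at 0 hr, and the count of 2 was near that share.

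*Apol8* fell from 1193, 1100 and 918 reads to 4, 0 and 5 reads, and *Mir23a*, the record of a microRNA precursor of 75 bases, from 26, 16 and 19 reads to 0 reads in each library, which is under the floor of 3 counts. Stress genes followed the early genes: of 13 genes of the integrated stress response 7 fell and 1 rose (median −1.43), where in WT cells 5 fell and 6 rose. *Ddit4*, an inhibitor of the growth kinase mTORC1, was the member that rose, from 5.49, 5.75 and 4.89 RPKM to 25.6, 24.0 and 26.2 RPKM. *Pmaip1*, the death gene NOXA, fell by 3.58 ± 0.13 (SE), and the inhibitory receptor genes *Ctla4* and *Havcr2* by 3.75 and 2.73.

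Part of the falls were of genes that mark other cells of the spleen. In bulk RNA, fewer cells of a type and less RNA per cell cannot be told apart. Of 18 B cell markers listed 16 were measured, and 14 of these fell and 0 rose (median −1.35). Their summed RPKM was 4702, 4917 and 3912 at 0 hr and 858, 817 and 788 at 48 hr, and no measured marker was at 0. *Cd74*, the invariant chain of MHC class II and the most abundant of them, was at 1878, 1987 and 1556 RPKM at 0 hr and at 326, 302 and 289 RPKM at 48 hr. The sum in WT cells was 1502, 1640 and 2098 at 0 hr and 88.1, 76.1 and 105.7 at 48 hr, so the sum was higher in KI than in WT libraries at both times.

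Of 9 neutrophil markers 8 fell, from a sum of 48.0, 68.0 and 61.6 RPKM to 3.25, 4.50 and 2.93 RPKM, and of 10 dendritic cell markers 9 fell. *S100a8* (−5.68 ± 0.64 SE) and the inflammatory genes *Cxcl2* (−7.59), *Il1b* (−5.88) and *Tgfbi* (−5.53), known from myeloid cells, were among the 12 largest falls. Of 12 erythroid markers 11 fell, with sums of 1435, 582 and 857 RPKM at 0 hr and 324, 176 and 262 RPKM at 48 hr. *Hbb-b1*, a globin gene with near-identical copies, led this list. Of 7 platelet markers 4 fell, at summed levels under 3 RPKM, but 1 without 0 hr replicate 1 and 2 without 48 hr replicate 1 or replicate 3, and of 6 markers of CD4+ and regulatory T cells 2 fell. *Cd4* went from 19.3, 18.1 and 13.9 RPKM to 8.54, 8.41 and 7.95 RPKM.

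Macrophage and monocyte markers split. Of 26, 2 rose and 9 fell in KI cells, and 2 rose and 20 fell in WT cells, so that 18 responses were higher in KI than in WT cells and 2 lower. The count of 9 was 7 to 11 when 1 library was left out. It was larger still with only the groups compared, the 24 libraries of the line or the replicate block. The sum of the 26 markers in KI cells was 679, 592 and 527 RPKM at 0 hr and 796, 682 and 639 RPKM at 48 hr, led by *Ly6c2* and *Ctsd*, which T cells also express. *Csf1r*, the growth factor receptor of macrophages, was at 12.3, 10.9 and 9.22 RPKM at 0 hr and at 1.52, 0.918 and 1.31 RPKM at 48 hr, and in WT cells it had 0, 2 and 4 reads at 48 hr. The complement gene *C1qa* was at 14.9, 12.1 and 10.1 RPKM before and at 6.72, 3.82 and 6.29 RPKM after culture of KI cells, a difference that was not called, and it had 2, 0 and 2 reads in WT cells at 48 hr.

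*Trem2*, a receptor of macrophages that handle lipids, rose from 0, 2 and 1 reads to 76, 38 and 61 reads, beside the rise of *Gpnmb*, and *Mmp12* (log2 3.14 ± 0.61 SE) and *Atp6v0d2* (3.40 ± 0.56), chosen after their values were seen, rose too. The 5 genes with the most positive fitted KI minus WT differences, at a mean RPKM of at least 5 in one of the groups, were the macrophage markers *Cd5l*, *C1qa*, *Csf1r* and *C1qc* and the dendritic cell marker *Cd209a*. WT libraries at 48 hr held 0 to 4 reads of each of them, near or under the floor of 3 counts, so the sizes of these differences and their order are not given as measurements. *Cd5l*, a secreted protein gene of macrophages, had 355, 398 and 336 reads in KI cells at 0 hr and 970, 601 and 1048 reads at 48 hr, and 59, 56 and 90 reads in WT cells at 0 hr and 4, 2 and 4 reads at 48 hr. With limma on log2(RPKM + 1), *Cd209a* (0.16), *C1qa* (0.54) and *C1qc* (1.00) were not called and *Csf1r* was at −0.54.

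Markers of CD8+ T cells were at high levels in all 6 libraries. The sum of the 9 measured of 12 listed CD8+ T cell markers was 1591, 1585 and 1495 RPKM at 0 hr and 2578, 2478 and 2307 RPKM at 48 hr, with a median difference of 0.37. By edgeR 0 were called in either direction, 8 were higher and 0 lower at an unadjusted p below 0.05 (30.4% and 26.5% of all genes tested), and limma called 1 higher. *Cd8b1* was at 252, 246 and 247 RPKM before and at 536, 501 and 485 RPKM after culture, a difference of 0.89 ± 0.09 (SE), against −0.28 in WT cells. The labelled cell type was thus present at both times, together with markers of other cells. Of 12 NK cell markers 5 rose and 1 fell, with sums of 406, 382 and 338 RPKM at 0 hr and 479, 479 and 418 RPKM at 48 hr, led by *Nkg7*, which cytotoxic T cells also express. From 24 to 48 hr 8 of the 12 rose. *Ncr1* was at 0.847, 0.637 and 0.673 RPKM at 0 hr and at 9.53, 8.43 and 6.61 RPKM at 48 hr. The part of these cell types in the counts of risen and fallen genes was not tested.

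**Figure D4:**
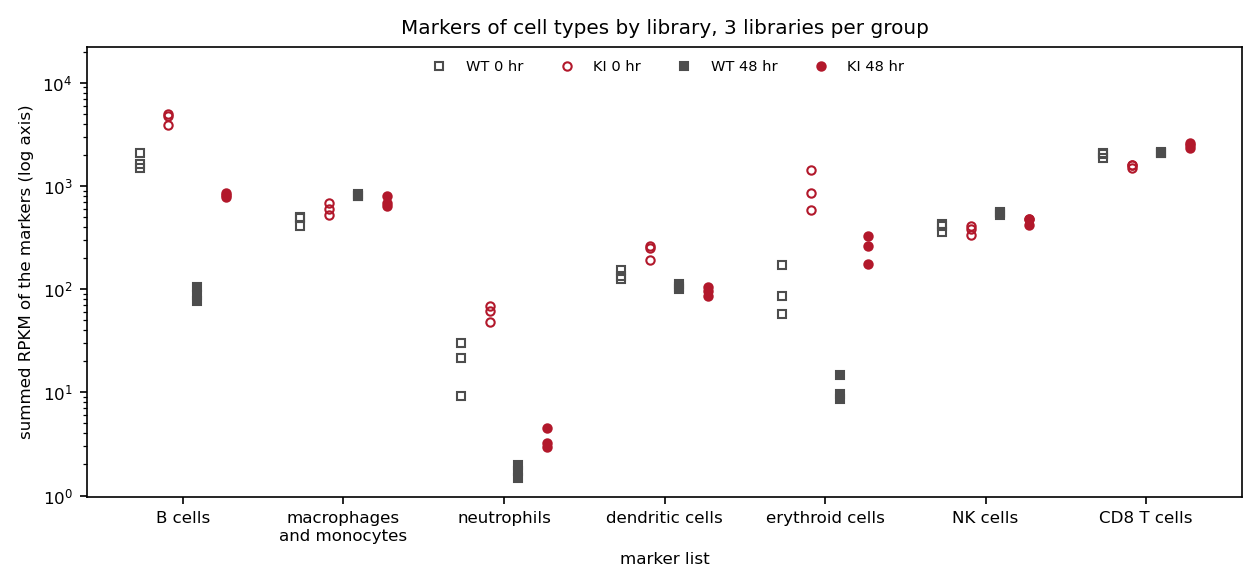
Summed RPKM of the markers of 7 cell types on a log axis, with 1 point per library (3 per group) for WT and *Stat5b* KI cells at 0 hr (open) and 48 hr (filled). B cell, neutrophil and erythroid markers were lower at 48 hr in both genotypes and higher in KI than in WT cells, and CD8+ T cell markers stayed above 1400 RPKM in each library.

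Set against the WT response, which shares no library with the KI response, the KI response shared part of its genes. WT cells had 2515 genes higher (16.2%) and 2987 lower (19.2%) at 48 hr than at 0 hr. This order depended on the setting. With limma on log2(RPKM + 1) WT cells had 2001 higher and 808 lower, and with genes kept only at an RPKM of at least 5, 1785 and 727. Of the 969 genes that rose in KI cells, 564 also rose in WT cells, which is 58.2% of the KI and 22.4% of the WT list, and 18 fell there. Of the 1949 that fell in KI cells, 1466 also fell in WT cells (75.2% of the KI and 49.1% of the WT list), and 39 rose there. Genes that rose in WT cells had a median log2 difference of 1.55 in WT and 0.49 in KI cells, and 2147 of the 2515 were positive in KI cells. For genes that fell in WT cells the medians were −2.15 and −1.12. Both sets were chosen by a WT change of at least 2-fold, so part of the gap between these medians was fixed by that choice. The median of all genes in KI cells was 0.03.

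The difference of the responses, tested in the same fit, was called for 1525 genes as higher in KI cells (9.8%) and 1797 as lower (11.5%). *Lta* (−3.79 ± 0.18 SE), *Ccnb1* (−3.78 ± 0.36), *Sema7a* (−3.54 ± 0.29) and *Tnfrsf9* (−3.49 ± 0.28) came after *Gzmb* as the 5 lowest. *Ccnb1*, the cyclin of mitosis, rose in KI cells to 13.4, 16.1 and 11.04 RPKM and in WT cells to a mean of 54.9 RPKM. *Sema7a* fell by 1.11 on the log2 scale in KI cells and rose by 2.43 in WT cells. *Tnfrsf9*, the costimulatory receptor 4-1BB, was at 10.8, 9.92 and 9.94 RPKM in KI and at a mean of 68.3 RPKM in WT cells. *Cxcr6* was higher, with a KI minus WT difference of 1.63 ± 0.26 (SE, edgeR adjusted p = 2.3e-06), and so was *Lpar6*, a receptor for lysophosphatidic acid chosen after its values were seen (1.74 ± 0.16), at 23.2, 20.9 and 25.6 RPKM in KI cells.

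**Figure D5:**
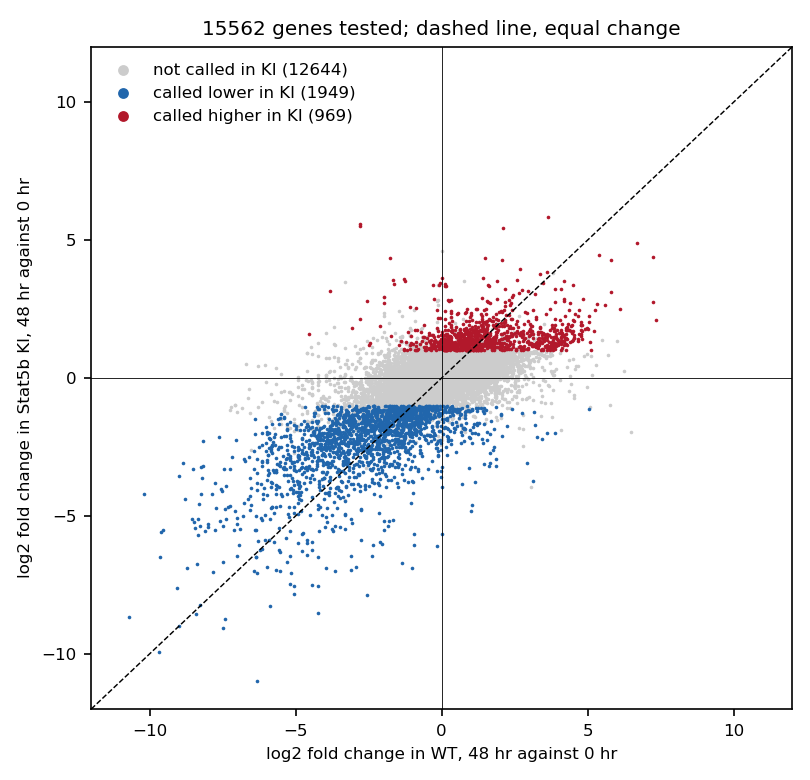
Log2 fold change from 0 to 48 hr in *Stat5b* KI cells (vertical axis) against that in WT littermates (horizontal axis) for 15562 genes, with the 969 called higher in KI in red, the 1949 called lower in blue and the rest in gray. The dashed line marks equal change, and most genes called in both genotypes lie between it and the horizontal axis or on the lower left.

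The *Stat5a* KI response at 48 hr comes from other libraries and was set beside it last. Of the genes that rose in *Stat5b* KI cells, 767 also rose in *Stat5a* KI cells (79.2% of the *Stat5b* KI and 48.7% of the *Stat5a* KI list), and of those that fell 1633 also fell (83.8% and 65.7%). The *Stat5a* KI response was itself broad, with an unadjusted p below 0.05 by edgeR for 10217 of the 15562 genes. The overlaps are thus a description, and their excess over that breadth was not tested. The difference of the responses was called for 0.912% of the genes tested as higher in *Stat5b* KI cells and for 325 as lower (2.09%). Of the 36 mitosis genes 29 were lower and 0 higher, and of 48 replication genes 16 were lower. The shares over all genes were not stable. Leaving out 1 library gave 0.527% to 0.99% higher and 1.47% to 2.65% lower. Limma called 16 genes higher and 162 lower, all 48 libraries gave 27 and 181, and only the groups compared gave 321 and 329. *Top2a* had a mean of 100.3 RPKM in *Stat5a* KI cells at 48 hr, and its response was lower in *Stat5b* KI cells by −1.54 (edgeR adjusted p = 0.00019). *Gzmb* had a mean of 222 RPKM there, and its difference was −2.73 (edgeR adjusted p = 7.5e-05). *Cish* (−0.04) and *Myc* (0.21) were not called. WT libraries of the *Stat5a* line were not part of this comparison.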

How the data were processed

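RNA-seq libraries of 50 bp reads were made from CD8+ T cells before and after 4, 24 or 48 hr with IL-2. The authors mapped them to mm10 (submitters' processing notes: TopHat2 2.0.11, Bowtie2 2.2.6, SAMtools 0.1.8, bedtools 2.25.0 and edgeR), kept uniquely mapped reads and deposited a read count for each of 31682 RefSeq transcripts. From these counts the authors computed the RPKM of each transcript with its length and the mapped reads. The counting program and strand use were not given in the sources used here, so reads of overlapping, antisense or near-identical genes cannot be told apart.

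Of 23992 symbols, 4343 had 2 or more transcripts, and the longest was used. Counts were fitted in edgeR 4.0.16 (R 4.3.3) with all groups of the series in 1 model, over 47 libraries (without *Stat5a* KI 4 hr replicate 3, which had 1028503 reads), with TMM scaling, a minimum count of 10 in filterByExpr, and glmQLFTest. Of all symbols, 15562 were tested. The standard error (SE) is the size of the log2 difference divided by the root of F. KI minus WT and *Stat5b* KI minus *Stat5a* KI responses were contrasts of the same fit. All 6 KI libraries had 34916132 to 42457117 reads, and 3 counts, the floor used, came to 0.0707 to 0.0859 CPM. It covers counting error only.

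The comparison and its 46 gene lists were chosen with earlier results of these data known. In the lists 6 members were matched by an older symbol and 7 were not matched. Genes named were *Stat5a* and *Stat5b*, the 12 largest rises and falls among called genes without overlap at a mean RPKM of at least 5, from each list the 2 largest and 2 smallest differences and the most abundant member, genes that the study discussed, and the 5 most positive and negative KI minus WT differences at that level. Other list members were added after their values were seen, namely *Ccnd2*, *Ccr7*, *Cdk1*, *Gzmg*, *Ifit3*, *Il12rb1*, *Irf4*, *Klf2*, *Ly6c2*, *Pim2*, *Pim3*, *Prf1*, *Rsad2*, *S1pr1*, *Socs1*, *Tnfsf10* and *Bbc3*, and genes outside the lists and the rule are marked where they appear. Alternatives were DESeq2 1.42.0 (size factors and Wald test), limma 3.58.1 on log2(RPKM + 1) for genes at RPKM 1 in 3 libraries, other filters, other sets of libraries, another transcript per gene, a replicate block and leaving out each library. Python 3.11.15, pandas 2.3.3 and numpy 2.4.6 made the tables. Some genes are not reported here.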

Additional observations from a re-analysis of the deposited data

Results flagged for a closer look

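The response of *Stat5b* KI cells between 0 and 48 hr differed from that of WT littermates by the test of the difference itself in edgeR, with 1525 genes higher and 1797 lower in KI cells. The difference from the *Stat5a* KI response, tested in the same way, was called for 0.912% of the 15562 genes as higher in *Stat5b* KI cells and for 2.09% as lower.

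Macrophage markers and 1 dendritic cell marker had the most positive fitted differences from the WT response among genes at an RPKM of at least 5, on the log2 scale 5.75 for *Cd209a*, 5.61 for *Cd5l*, 5.29 for *C1qa*, 4.99 for *Csf1r* and 4.76 for *C1qc*. WT libraries at 48 hr held 0 to 4 reads of each, near or under the floor of 3 counts, so these sizes depend on the prior count of the fit and are no bounds, and with limma on log2(RPKM + 1) *Cd209a* (0.16), *C1qa* (0.54) and *C1qc* (1.00) were not called. The lowest differences were those of *Gzmb* (−4.48), *Lta* (−3.79), *Ccnb1* (−3.78), *Sema7a* (−3.54) and *Tnfrsf9* (−3.49), in which effector genes, a mitotic cyclin and a costimulatory receptor were represented. Single outlying libraries were not tested in these groups of 3.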

How the results depend on the processing

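Of the counts of called genes, 155 stayed within 1.5 times of the reported count under the alternatives and 27 did not, and of the counts of list members 890 did and 84 did not. Leaving out 1 library took the risen members of the glycolysis, sterol, purine and one-carbon lists from 1 to 0, and of the effector factor, BCL2, p53 and CDK inhibitor lists from 2 to 1. It took the stress response (without 0 hr KI replicate 3) and costimulatory lists (without 0 hr KI replicate 2 or 3) from 1 to 2 and the tRNA synthetases (without 48 hr KI replicate 3) from 0 to 1. These single calls are not stable. The macrophage markers that fell numbered 14, not 9, with only the groups compared, with the 24 libraries of the line or with the replicate block. 1 alternative kept genes at RPKM 5 or more in 2 or more libraries, and another was limma on log2(RPKM + 1). In that order, the KI response had 446 and 565 genes higher and 495 and 575 lower. The WT response had 1785 and 2001 higher and 727 and 808 lower. The KI minus WT difference had 603 and 521 higher, with 1135 lower by limma. As percent of the 15562 genes, the *Stat5b* KI minus *Stat5a* KI difference was then at 0.212% and 0.103% higher and 1.23% and 1.04% lower, and the KI change from 24 to 48 hr at 0.816% and 1.08% higher and 0.148% and 0.141% lower. With all 48 libraries, the difference between the KI lines was at 0.173% higher and 1.16% lower, and the change from 24 to 48 hr at 0.572% lower. With only the groups compared, the former was at 2.06% higher, and with the 24 libraries of the *Stat5b* line the latter was at 1.81% lower. Why these counts moved was not tested.

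Leaving out each library in turn gave 852 to 986 genes higher and 1785 to 1919 lower for KI, 2472 to 2541 and 2799 to 2880 for WT, and 1378 to 1600 and 1600 to 1853 for KI minus WT. For the difference between the KI lines it gave 0.527% to 0.99% higher and 1.47% to 2.65% lower, with 0.527% without *Stat5a* KI 48 hr replicate 2 or *Stat5b* KI 48 hr replicate 3 and 0.585% without *Stat5a* KI 0 hr replicate 2. For 24 to 48 hr it gave 1.36% to 1.82% higher and 0.713% to 0.977% lower, with 0.713% without 24 hr KI replicate 3 and 0.726% without 48 hr KI replicate 2. The replicate block gave 977 higher and 1958 lower for KI and 1557 and 1806 for KI minus WT. Deviations of same-numbered KI libraries at 0 and 48 hr correlated at 0.014, 0.089 and 0.144, and those of differently numbered ones at −0.174 to 0.085. Between 24 and 48 hr the ranges were 0.049 to 0.122 and −0.069 to 0.019. The labels do not say that a number marks the same mouse at each time, and the main fit used no pairing. Whether a number marks a shared source was not tested.

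The difference of *Stat5b*, which was not called, changed sign to −0.02 with DESeq2's size factors, to −0.02 with DESeq2's Wald test and to −0.03 without 48 hr KI replicate 1, in a range of −0.03 to 0.11 over libraries left out. By limma the KI minus WT difference of *Csf1r* was −0.54. DESeq2's size factors moved the median of all genes in the KI response from 0.03 to −0.05. With these size factors the KI response had 822 genes higher and 2107 lower. On limma's scale the median was 0.20. Genes under about the floor of 3 counts in a library cannot be placed.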

Other observations

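The GIMAP genes, GTPases of lymphocyte survival, had a median log2 difference of 0.73 in KI cells, and 2 of 8 rose. *Gimap4* was at 164, 146.98 and 172 RPKM at 0 hr and at 438, 445 and 431 RPKM at 48 hr (log2 1.31), and *Gimap7* rose by 1.42. Of 17 BCL2 family genes 2 rose, *Bcl2* and *Bik*, and 5 fell, among them *Bbc3* (−1.14), the death gene PUMA, and *Bcl2a1a* (−1.65), which has near-identical copies. Of 19 p53 targets 2 rose, *Gtse1* (1.09) and *Rrm2b* (1.03), and 4 fell, with *Plk2* at −4.07 and *Sesn2* at −2.04. Of 23 genes of the T cell receptor complex and its signaling *Cd28* fell (−1.39) and 0 rose, and of 12 inhibitory receptors 5 fell and 0 rose.

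Of 26 chaperones 3 fell in KI cells and 13 rose in WT cells, and 20 were lower in the KI response than in the WT response. The heat shock genes *Hspa1a* and *Hspa1b* (−5.40), which are near-identical, led the falls. Of 12 amino acid transporters 3 fell and 0 rose. The collagen-binding integrin genes *Itga2* (1.64) and *Itga1* (1.43) rose and *Itgax* (−2.46) and *Itgam* (−2.36), known from myeloid cells, fell, among 18 integrin and adhesion genes. Of 16 costimulatory genes *Tnfsf8* rose (1.56) and *Tnfsf9* (−1.73) and *Tnfsf11* (−1.25) fell. Among CDK inhibitors and pocket proteins *Cdkn2c* (1.14) and *Rbl1* (1.12) rose and *Cdkn1a* (−1.58) and *Cdkn1c* (−2.31) fell, and in the MYC network *Mxd3* rose and *Mycl* (−3.35) and *Mxd1* (−1.71) fell. Of 17 chemokine and receptor genes 4 rose and 6 fell. Of 13 markers of memory-phenotype CD8+ T cells 2 rose, *Cxcr3* and *Xcl1*, against 7 in WT cells. The count of KI cells was 1 without 48 hr replicate 1 and 4 without 48 hr replicate 3. Their summed RPKM went from 1130.8, 1027 and 974 to 1465, 1424 and 1194.

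*Fam78a*, chosen after its values were seen, rose from 28.9, 31.0 and 27.9 RPKM to 125.3, 111.7 and 111.9 RPKM in KI cells (log2 1.86), and its response exceeded that of WT cells by 1.55. *Nek6* fell by 1.19 on the log2 scale in KI cells and rose by 1.20 in WT cells. The summed RPKM of erythroid markers had the same order of KI libraries at each time, with replicate 1 the highest and replicate 2 the lowest, as at 4 hr with 1240, 519 and 838 RPKM and at 24 hr with 649.7, 280.3 and 539 RPKM.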
